A study of Homo sapiens with 8 samples.

Results

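The wells described here are the sparsest usable wells of a single-cell sequencing experiment on newly made DNA in human RPE-1 hTERT cells, a retinal pigment epithelial line immortalised with telomerase. They were chosen by their number of molecules alone: at least 300 and under 1000 deposited molecules on chromosomes 1 to 22. This rule took 482 of 3023 wells over 8 plates, and they are called sparse wells from here on. Of these, 232 held CFAP20-KO cells and 250 held wild-type (WT) cells. Both genotypes lay on every plate and all cells had the same 15 min pulse of 10 µM EdU, with no other treatment. The KO wells carry a loss of CFAP20, the gene for cilia and flagella associated protein 20, and the labels used here do not say how many clones were used or how the gene was disrupted. Each deposited row is one sequenced molecule with its well, position, signed length and genotype, and the genotype of a well was read from that row.

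In scEdU-seq, cells take up EdU, a thymidine analogue, at active replication forks, and fragments that carry it are enriched, barcoded by well and sequenced. A cell in S phase then gives molecules in tracks along the stretches it was copying, early-replicating gene-rich DNA first and late-replicating gene-poor DNA last. A cell outside S phase has no such tracks, and what its well holds is background. Each well is told apart by a short cell barcode, and the same set of barcodes is used again on each plate.

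The sparse wells held 356941 autosomal molecules, 1.48% of the 24066581 in the series, although they made up 15.9% of the wells. Plates held 1746074 to 4181841 molecules in all. Per plate there were 14244 to 28179 molecules in KO sparse wells and 14553 to 30113 in WT sparse wells. For comparison, 1516 intermediate wells had 1000 to under 5000 molecules, 914 labelled wells had at least 5000, and 111 wells under 300 were left out. The lowest count inside the range was 300 and the highest below it 290, while the highest inside was 999 and the lowest above it 1000. Counts ran smoothly across both limits, with 25 wells at 300 to 349 against 23 at 250 to 299, and 59 wells in the uppermost 50 molecules of the range against 59 in the 50 above it. Sparse wells were 16.2 ± 2.43% of KO wells and 15.8 ± 4.09% of WT wells (SD, n = 8 plates), and the KO share was the higher one on 3 of 8 plates.

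Before the composition of these wells is described, the cell barcodes need to be considered, because the same barcodes gave sparse wells on plate after plate and the wells of one barcode held the same positions. Of the 60 barcodes with at least 5 sparse wells, the 2 lowest and the 2 highest in mean late share, the percentage of molecules in late-replicating bins, are printed with the letters the files give, to show what a barcode's wells have in common. No letter is capitalised, since no letter or motif was singled out.
barcode A: gccgttgc
barcode B: taatgatt
barcode C: tcgtagga
barcode D: tgcacagc

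Barcode A gave 6 sparse wells, 3 KO and 3 WT, with late shares of 29.6 to 33.9%. Barcode B gave 7, 4 KO and 3 WT, with 28.9 to 39.9%. At the other end, barcode C gave 7, 3 KO and 4 WT, with 61.6 to 66.3%, and barcode D gave 6, 2 KO and 4 WT, with 61.6 to 68.8%. That A and B lie apart from C and D follows from their choice. Each of the 4 barcodes held wells of both genotypes on different plates. The labelled wells at these barcodes, all on other plates, leaned the same way: the one at barcode A had a late share of 10.5%, the one at B 11.4%, the one at C 97.2%, and the pair at D 70.0 and 96.3%.

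The files held 378 barcodes, of which 377 occurred on all 8 plates and 371 carried both genotypes. All 482 sparse wells came from 107 of them, and 271 barcodes never gave one. A set of 43 barcodes that were sparse on 6 to 8 plates held 283 of the 482 wells (58.7%). For each plate, barcodes sparse on at least 4 of the other 7 plates were taken as recurrent. On the plate left out, 69.7 ± 6.42% of wells at recurrent barcodes were sparse, against 4.57 ± 2.24% at the other barcodes (SD, n = 8 plates), and the ranges of 60.9 to 79.1% and 1.62 to 8.33% did not overlap. Recurrent barcodes were not richer in one genotype, with 47.9 ± 7.30% KO wells against 47.1 ± 4.10%. Fewer of their wells were labelled (15.8 ± 5.99% against 33.3 ± 4.77%), and those that were held fewer molecules, with a mean of plate medians of 13371 against 21851. Among the 2109 wells under 5000 molecules, 86.1% of the variance of log2 molecules per well lay between barcodes, 0.671% between plates and 0% between genotypes. In labelled wells these shares were 18.2%, 7.67% and 16.1%. The number of labelled molecules at a barcode moved with this. Over 348 barcodes, the mean log2 count of wells of 300 to under 5000 molecules had r = 0.77 with the log2 sum of labelled molecules, a description across barcodes that share plates.

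Sparse wells also held the very positions of labelled wells with the same barcode on other plates. In 562 such pairs, a sparse well shared 30 to 409 positions (same chromosome, base and direction) with the labelled well, with a median of 130.5, which was 18.7 ± 0.803% of the sparse well's positions (SD over 8 plates). In the 385351 pairs with different barcodes, a sparse well shared 0 to 51 positions with a median of 4, or 0.683 ± 0.0348%. All 562 pairs of one barcode shared at least 10 positions, against 11.1% of pairs of different barcodes. Genotype made little difference to this. The share was 18.8 ± 2.20% for KO sparse wells with KO labelled wells, 17.8 ± 2.74% for KO with WT, 18.1 ± 1.09% for WT with KO and 19.7 ± 1.45% for WT with WT. Fragment length was the same in 9.89% of the shared positions of one barcode and in 5.58% of those of different barcodes, so most shared a start and direction but not a length.

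Counted over wells of every size, 24.1 ± 1.85% of the autosomal molecules of sparse wells lay at a position that a larger well of the same barcode on another plate also held, from 20.9 to 27.0% over the plates (23.8 ± 3.15% in KO and 23.9 ± 2.90% in WT sparse wells). The value was 33.1 ± 1.71% in intermediate and 3.53 ± 1.93% in labelled wells. It rose in steps with the labelled molecules that the barcode had on other plates. It was 3.40% in the 103 sparse wells with no labelled well at their barcode, 20.1% in 169 wells with 5000 to under 20000 labelled molecules, 32.8% in 177 wells with 20000 to under 40000, and 47.4% in 33 wells with 40000 or more. At equal depth, with every well thinned to 300 molecules, sparse wells of one barcode on different plates shared 165 positions per 100 pairs of wells, against 18.2 for different barcodes. The same values were 123 against 19.4 in intermediate and 23.05 against 8.30 in labelled wells. A position on chromosome 6 at 121122362 within TBC1D32, which encodes a ciliary protein, occurred at barcode actcgatg on 7 plates, in 2 KO and 5 WT sparse wells. It was chosen after its values were seen, as the position on the most plates. Among 347969 distinct combinations of barcode and position in sparse wells, 6912 were found on 2 or more plates and 835 on 3 or more. Of the 835, 186 lay in bins of repeat-like high count, which held 1.63 ± 0.142% of all autosomal molecules of sparse wells. At positions that no other barcode's sparse wells held lay 530 of the 835, and that share was not counted over all combinations. The 8 plates are thus not independent samples of these wells, and how the positions came to be in both wells was not tested. Each result that could be recomputed was also taken without the shared molecules, and the value stands beside it where it moved a call.

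**Figure D1:**
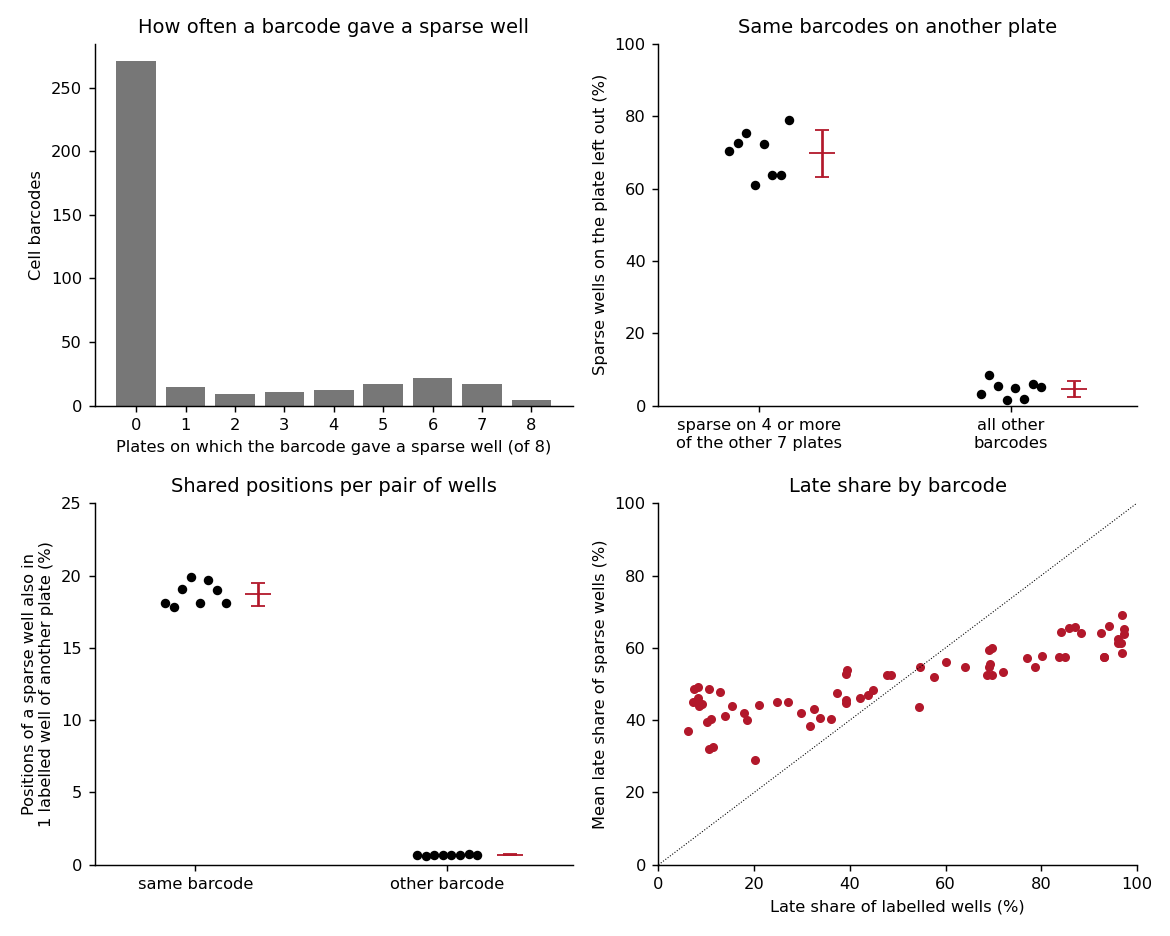
Top left, number of cell barcodes (bars) by the number of plates on which they gave a sparse well; top right, percentage of wells that were sparse on each left-out plate; bottom left, percentage of a sparse well's positions found in a labelled well of another plate, averaged per plate; bottom right, mean late share of the sparse wells of a barcode against the molecule-weighted late share of its labelled wells, 1 point per barcode (68 barcodes). Black points are plates and red bars mean ± SD over 8 plates; same-barcode pairs sit at 17.8 to 19.9% and other pairs at 0.626 to 0.741%, and the lower right points run upward with r = 0.87, more flatly than the dotted line of equality.

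Late share was taken over 500 kb autosomal bins ordered by the labelled wells, as the percentage of molecules in bins later than the median. The labelled wells gave the order alone, and its gene-rich end was taken as early. Single sparse wells ran from 21.1 to 89.5% with a median of 51.3%, and 72.8% of them lay between 40 and 60%. In intermediate wells 66.6% lay there and in labelled wells 9.30%. Conversely, 2.49% of sparse wells (12 wells) lay under 30 or over 70%, against 6.13% of intermediate and 78.4% of labelled wells. The order was drawn from the labelled wells' own counts, which favours a wide spread among them, so this contrast with labelled wells is a description. Of the variance of late share between sparse wells, 77.2% lay between barcodes and 0% between plates or genotypes, and in intermediate wells 68.7% lay between barcodes. For the 60 barcodes with at least 5 sparse wells, the barcode means ran from 32.1 to 65.1% with an SD of 7.78 points, while the median SD within a barcode was 2.05 points. Over the 68 barcodes with at least 3 sparse wells and a labelled well, the mean late share of the sparse wells had r = 0.87 with that of the labelled wells, which ran from 6.25 to 97.3%. The number of G and C letters in the barcode had r = -0.00193 with the mean late share of sparse wells over 83 barcodes with at least 3 of them. Averaged over wells per plate, late share was 49.8 ± 1.32% at barcodes with 5 to 8 such letters, 53.1 ± 1.45% with 4 and 52.4 ± 1.65% with 0 to 3. These correlations are descriptions, since barcodes share plates and libraries.

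Summed per plate, the sparse wells were flatter along replication timing than the other classes. Their late share was 51.3 ± 0.937%, against 59.4 ± 3.29% in labelled wells and 53.0 ± 0.697% in intermediate wells (SD, n = 8 plates). It was lower on all 8 plates in both comparisons (adjusted p = 0.00994 over 14 class tests by exact permutation, flipping the sign of each plate's difference, two-sided, where 0.00781 is the smallest unadjusted p that 8 plates allow). The same barcodes were sparse on plate after plate, so the plates are not independent, and the p-values of the class tests may overstate the evidence. Without the shared molecules the difference from labelled wells held (50.3 against 59.3%, adjusted exact p = 0.0122). That from intermediate wells turned to +0.643 points (50.3 against 49.7%, adjusted exact p = 0.180). Recurrent barcodes held 368 of the 482 sparse wells but only 83 labelled wells, 2 to 14 a plate. At these barcodes neither call held: the difference from labelled wells was -3.53 points (adjusted exact p = 0.555) and that from intermediate wells turned to +2.27 (adjusted exact p = 0.365). Without those barcodes the first was -6.93 (adjusted exact p = 0.0365) and the second -0.301 (adjusted exact p = 0.898). With so few labelled wells, a lost call at recurrent barcodes does not show that the difference from labelled wells is absent. Over 10 equal groups of bins from early to late, the earliest group held 0.879 ± 0.0394 of the mean bin in sparse wells, 0.832 ± 0.0562 in intermediate and 0.508 ± 0.0797 in labelled wells. The latest held 1.02 ± 0.0359, 1.12 ± 0.0791 and 1.19 ± 0.165. KO and WT sparse wells lay close to each other in the earliest group (0.889 ± 0.0767 and 0.871 ± 0.0353) and in the latest (0.996 ± 0.0626 and 1.06 ± 0.0468). Across 5403 bins, the sparse wells' counts had r = 0.84 with the intermediate and r = 0.65 with the labelled wells' counts. With the number of protein-coding gene starts per bin, r was -0.22 in sparse and -0.51 in labelled wells.

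**Figure D2:**
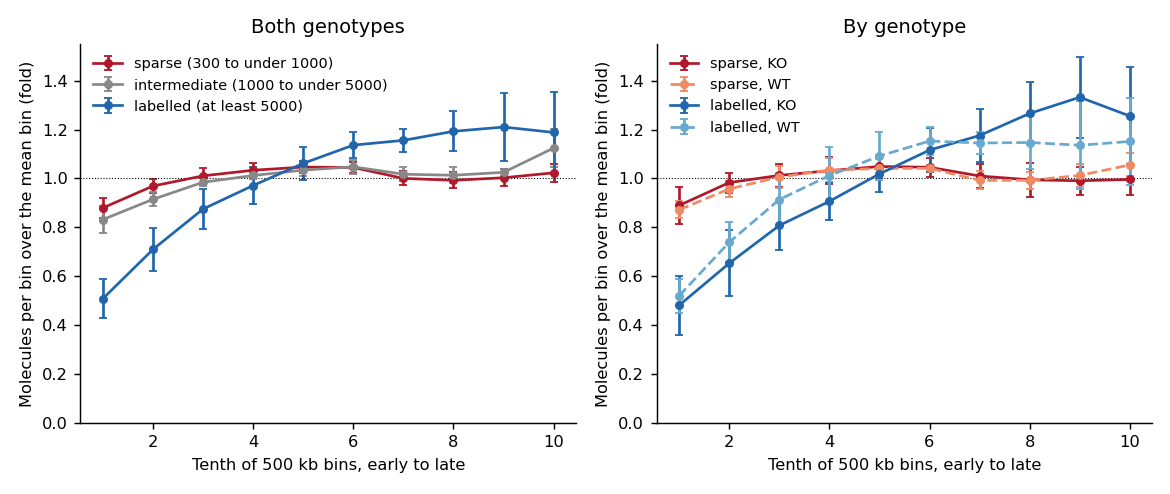
Molecules per 500 kb bin over the mean bin (fold) in 10 groups of bins from early to late, mean ± SD over 8 plates; left, sparse, intermediate and labelled wells with both genotypes summed; right, sparse and labelled wells by genotype. Sparse wells stay between 0.879 and 1.05 and the KO and WT lines run together, whereas labelled wells climb from 0.508 in the earliest group to 1.21 in the ninth.

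Fragments were short in sparse wells. The median length per plate was 196 to 199 bp, with a mean of 198 ± 1.13 bp, against 257 ± 8.38 bp in labelled wells (246 to 271 bp) and 205 ± 3.15 bp in intermediate wells (200 to 210 bp). The sparse and labelled ranges did not overlap, and length was lower on all 8 plates in both comparisons (adjusted exact sign-flip p = 0.00994 each). Without recurrent barcodes the log2 difference from intermediate wells was -0.0196 instead of -0.0491 and did not pass (adjusted exact p = 0.153). The lower and upper quartiles averaged 135 and 269 bp in sparse wells and 172 and 372 bp in labelled wells. Strand was balanced, with 50.4 ± 0.191% of sparse-well molecules in the positive direction and 50.4 ± 0.0654% in labelled wells.

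Molecules were spread more evenly over the genome in sparse wells. The coefficient of variation over 1 Mb bins beyond counting error was 35.6 ± 2.66%, against 43.4 ± 5.10% in labelled and 39.9 ± 3.78% in intermediate wells, lower on all 8 plates each time (adjusted exact sign-flip p = 0.00994). Without the shared molecules it was 28.4 ± 2.89% against 39.8 ± 4.91% (adjusted exact p = 0.0122), and against 30.01 ± 2.98% in intermediate wells the call was lost (adjusted exact p = 0.160). The call against intermediate wells was also lost without recurrent barcodes (-0.993 points), in wells of 300 to under 600 molecules (-3.75) and without high-count bins (-0.336). Clustering along the chromosome was tested with pairs of molecules of one well 1 to 20 kb apart over those 400 to 500 kb apart, each well thinned to 300 molecules. Evenly scattered molecules give a ratio of 1. Sparse wells had 4.13 ± 0.977, from 3.01 to 5.24 over the plates, against 8.55 ± 1.03 in labelled wells (7.21 to 10.1) and 5.51 ± 1.12 in intermediate wells. The ratio was lower than in labelled wells on 8 of 8 plates (log2 difference -1.08 ± 0.454, adjusted exact p = 0.00994) and than in intermediate wells on 7 of 8 (-0.43 ± 0.281, adjusted exact p = 0.0168). The call against intermediate wells was lost without recurrent barcodes (log2 -0.328), with molecules of one position and direction counted once (-0.146) and without high-count bins (-0.150). Without the shared molecules the ratio was 2.99 ± 1.04 in sparse and 7.11 ± 0.839 in labelled wells. The sparse ratio was above 1, so molecules of a well lay closer together than even scattering gives. Even scattering takes no account of repeats or uneven coverage, and whether these molecules were labelled was not tested. The wells are called by their molecule count here and not by their working name of near-unlabelled.

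Repeat-like and organelle DNA made up small parts of the sparse wells. Bins of 200 kb above 3 times the median in labelled wells, 24 in all and 12 of them with no annotated gene, held 1.63 ± 0.142% of autosomal molecules in sparse wells, against 1.93 ± 0.282% in labelled and 1.97 ± 0.228% in intermediate wells. The bins were chosen in labelled wells, which favours a higher share there, so that difference is a description. It turned to +0.137 points when molecules of one well with the same position and direction were counted once. Intermediate wells had no part in the choice, and sparse wells lay below them on 8 of 8 plates (adjusted exact p = 0.00994), a call lost without the shared molecules (adjusted exact p = 0.109). The fullest of these bins in sparse wells was 16:46200001-46400000, which holds no annotated gene. It had 1011 sparse-well molecules, 37.4 times the median bin, against 32.4 times in labelled wells. Contigs outside the chromosomes, where satellite DNA is placed, held 1.17 ± 0.104% of non-mitochondrial molecules in sparse wells, 1.60 ± 0.176% in labelled and 1.33 ± 0.139% in intermediate wells, lower on 8 of 8 and 7 of 8 plates (adjusted exact p = 0.00994 and 0.0168). The first call was lost at recurrent barcodes, which held 2 to 14 labelled wells a plate. The difference was no smaller there (-0.464 points, against -0.430 over all barcodes). The second call was lost without recurrent barcodes (-0.0467). Contigs did not differ alike. KI270438.1 held 31.7 ± 5.48 of 10000 molecules in sparse wells and 32.9 ± 6.07 in labelled wells, whereas GL000225.1 held 3.37 ± 1.10 and 12.3 ± 2.00, ranges of 1.40 to 5.40 and 10.0 to 16.1 that did not overlap. KI270729.1 held 8.05 ± 1.24 and 12.4 ± 2.16.

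Mitochondrial DNA, which is copied outside S phase as well, gave 10.2 ± 2.46 molecules per sparse well, against 40.9 ± 4.86 per labelled and 23.4 ± 3.23 per intermediate well. The plate ranges of 6.07 to 12.4 and 30.9 to 46.9 in sparse and labelled wells did not overlap (log2 difference -2.04 ± 0.326). Sparse wells were chosen for few autosomal molecules, and mitochondrial molecules rose with autosomal ones. The choice thus favours a lower count in sparse wells, and the difference is a description. A single sparse well had a median of 6 mitochondrial molecules and a highest count of 56. As a share of all molecules, mitochondrial DNA was 1.26 ± 0.291% in sparse and 0.171 ± 0.0165% in labelled wells. This share has the autosomal count that chose the wells in its denominator and was not tested. Mitochondrial molecules rose with autosomal ones, from 6.36 ± 2.44 per well at 300 to under 600 molecules to 12.1 ± 2.71 at 800 to under 1000 and 42.9 ± 4.43 from 10000 on. At recurrent barcodes labelled wells held 22.7 ± 5.92 mitochondrial molecules, against 42.7 ± 5.48 at other barcodes. In sparse wells the order was the other way, with 10.9 ± 3.20 at recurrent and 7.76 ± 2.30 at other barcodes.

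**Figure D3:**
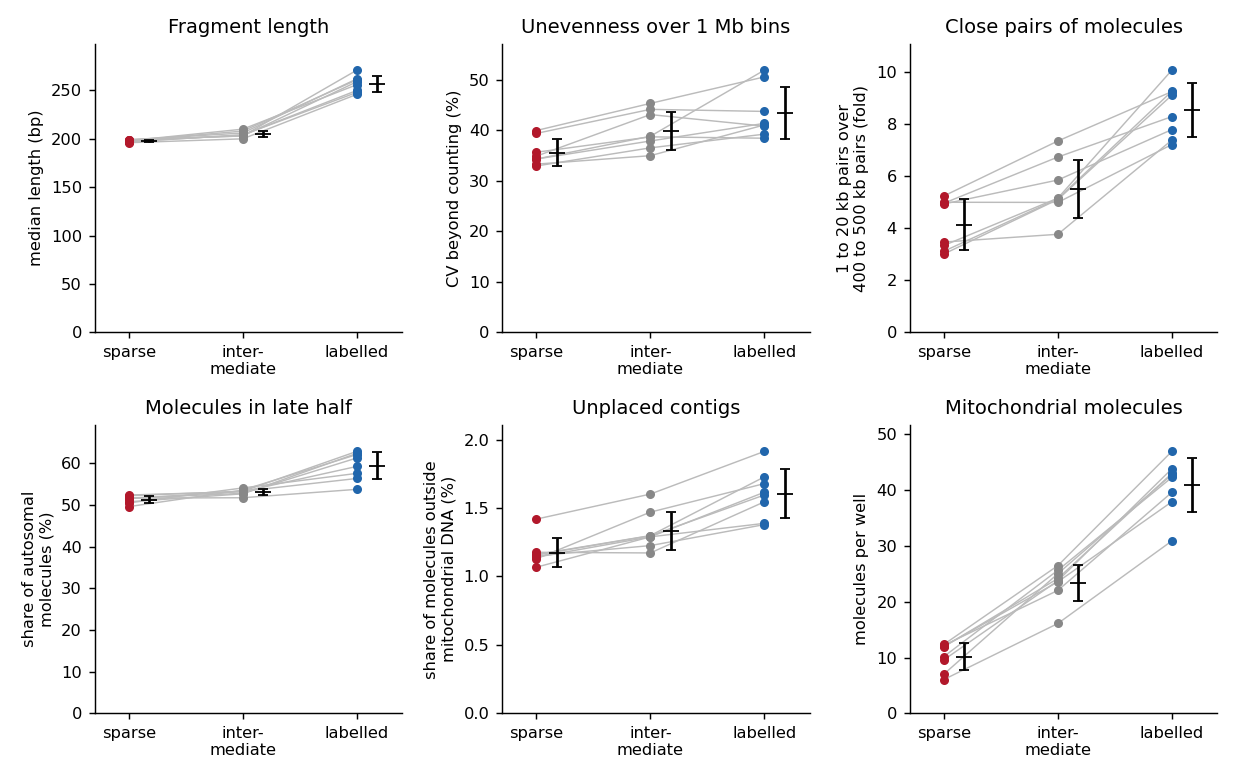
Measures in sparse, intermediate and labelled wells; each point is a plate with both genotypes summed, grey lines join a plate and black bars are mean ± SD over 8 plates. Sparse wells lie below labelled wells on every plate in median fragment length (198 against 257 bp), unevenness (35.6 against 43.4%), close pairs (4.13 against 8.55 fold), late share (51.3 against 59.4%), contig share (1.17 against 1.60%) and mitochondrial molecules per well (10.2 against 40.9).

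Over chromosomes, sparse wells ran from 0.789 of the genome mean per covered Mb on gene-rich chromosome 19 to 1.31 on chromosome 10, with an SD of 0.108 over 23 chromosomes, and 0.131 in labelled wells. Compared with labelled wells, 11 of 23 chromosomes passed the test (limma voom on 8 plates a class, adjusted p under 0.05, 47.8% of those tested, 6 or 26.1% higher and 5 or 21.7% lower). Chromosomes 17 (log2 +0.16 ± 0.0461 SE, adjusted p = 0.0150), 22 (+0.16), 19 (+0.14), 15 (+0.11), 1 (+0.09) and 11 (+0.05) were higher in sparse wells. Chromosomes 4 (-0.10), 18 (-0.10), 13 (-0.08), 21 (-0.08) and 8 (-0.07) were lower. Without the shared molecules 10 of 23 passed, 5 higher and 5 lower. No chromosome passed without plate 6 or without plate 7. Against intermediate wells 0 of 23 passed, with a smallest adjusted p of 0.0832.

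The densest chromosome carried a step. RPE-1 cells are known to hold an extra copy of most of the long arm of chromosome 10. Between 60 and 130 Mb on chromosome 10, sparse wells held 1.56 ± 0.0440 of the mean window in KO and 1.58 ± 0.0593 in WT cells, against 1.01 ± 0.0866 and 1.03 ± 0.0825 over the first 35 Mb (SD, n = 8 plates). In the last window, from 130 Mb on, which the chromosome's end cuts short, the values were 0.992 ± 0.118 in KO and 0.999 ± 0.0808 in WT cells. The plate ranges of the first 2 regions did not overlap in either genotype, 1.48 to 1.60 against 0.871 to 1.13 in KO and 1.48 to 1.66 against 0.911 to 1.18 in WT wells. In labelled wells the long-arm value was 1.46 ± 0.0546 in KO and 1.49 ± 0.0289 in WT cells. Between single wells, the share of a chromosome had a median coefficient of variation of 10.1% in sparse, 10.7% in intermediate and 24.9% in labelled wells.

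**Figure D4:**
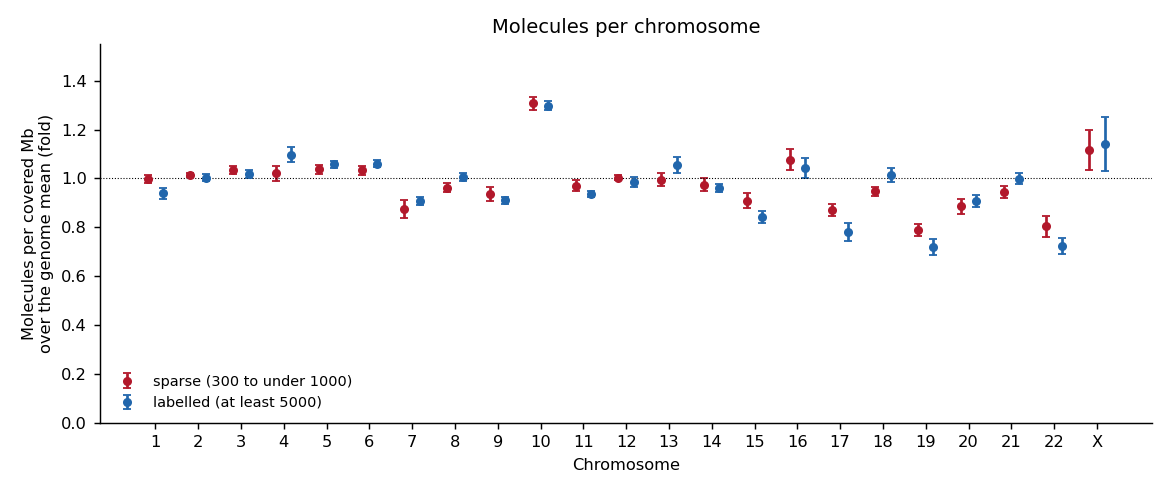
Molecules per covered Mb over the genome mean (fold) for chromosomes 1 to 22 and X, in sparse and labelled wells with both genotypes summed; points are means and bars SD over 8 plates. Chromosome 10 stands highest in both classes (1.31 and 1.30) and chromosome 19 lowest (0.789 and 0.719), with sparse wells closer to 1 on chromosomes 17, 19 and 22.

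Set against each other, KO and WT sparse wells did not differ in any of 8 measures (exact sign-flip test, adjusted p of 0.75 to 0.93). Late share was 51.0 ± 2.22% in KO and 51.6 ± 1.29% in WT wells, fragment length 198 ± 2.50 and 198 ± 2.03 bp, and pairs 3.91 ± 0.976 and 4.28 ± 1.38. Unevenness was 34.4 ± 2.65% in KO and 38.5 ± 6.82% in WT wells, lower in KO on 6 of 8 plates. The high-count bins held 1.58 ± 0.180 and 1.69 ± 0.209%, contigs 1.14 ± 0.0557 and 1.21 ± 0.152%, lower in KO on 7 of 8 plates. Mitochondrial molecules were 9.95 ± 2.49 per KO well and 10.4 ± 3.39 per WT well, or 1.22 ± 0.282 and 1.30 ± 0.421% of all molecules. A p that misses the threshold does not show that the genotypes are alike.

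The KO over WT ratio of molecules along the genome was near 0 on the log2 scale in sparse wells. Of 23 chromosomes 0 passed (limma voom, 16 libraries, adjusted p under 0.05, percentage called 0, 2 with an unadjusted p under 0.05, smallest adjusted p = 0.340), while in labelled wells 7 of 23 did (30.4%, 5 or 21.7% higher and 2 or 8.7% lower). Of 589 windows of 5 Mb, 0 passed (percentage called 0, 36 with an unadjusted p under 0.05; without plate 2 or plate 5, 2 windows passed, lower in KO), against 7 of 598 in intermediate wells (1.17%, all lower in KO) and 70 of 602 in labelled wells (11.6%, 31 or 5.15% higher and 39 or 6.48% lower). The window nearest the threshold was X:130000001-135000000, whose longest gene is GPC3, a cell-surface heparan sulfate proteoglycan (log2 -0.46 ± 0.113 SE, adjusted p = 0.0503 by limma voom). Depth limits this comparison: the median standard error of a window was 0.117 in sparse and 0.0670 in labelled wells. The window ratios themselves spread less, with an SD of 0.130 in sparse and 0.214 in labelled wells.

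A set of 4 segments in which KO wells of at least 1000 molecules held fewer molecules than WT wells was examined next. Sparse wells had no part in choosing them. Yet 24.1 ± 1.85% of sparse-well molecules lay at positions that a larger well of the same barcode on another plate also held. The sparse ratios are therefore not fully independent of the wells that chose the segments. In wells of at least 1000 molecules, 62 of 602 windows were called (10.3%, 25 or 4.15% higher and 37 or 6.15% lower). Intermediate and labelled wells both took part in this choice, so their values are a description. The segments were runs of adjacent windows past an adjusted p of 0.05 (limma voom) and a log2 of 0.4 in those wells. They are 7:65000001-75000000 with AUTS2, a long neuronal gene tied to chromatin, as its longest gene, 7:105000001-159335820 with CNTNAP2, a neuronal adhesion gene and common fragile site, 20:1-25000000 with MACROD2, another fragile gene, and X:150000001-155701995 with GABRA3, a GABA receptor subunit. They are called the AUTS2, CNTNAP2, MACROD2 and GABRA3 segments.

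In the CNTNAP2 segment, sparse wells held 2619 molecules in KO and 2812 in WT wells. The log2 KO over WT share ran from -0.44 to 0.27 over the 8 plates with a mean of -0.03 ± 0.205, and labelled wells had -0.77 ± 0.0567, from -0.86 to -0.70. The plate ranges of the classes did not overlap. Relative to the genome mean, the segment stood at 0.775 ± 0.0679 in KO and 0.793 ± 0.0564 in WT sparse wells, and at 0.577 ± 0.0217 in KO and 0.981 ± 0.0165 in WT labelled wells. The sparse level of either genotype thus lay between the labelled levels of KO and WT.

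The MACROD2 segment behaved in the same way. Sparse wells held 1316 KO and 1429 WT molecules with a log2 ratio of -0.07 ± 0.208 (-0.32 to 0.34), and labelled wells had -0.68 ± 0.0802 (-0.77 to -0.53). Its level was 0.832 ± 0.0789 in KO and 0.875 ± 0.0852 in WT sparse wells, between the labelled levels of 0.694 ± 0.0398 in KO and 1.11 ± 0.0552 in WT. For the AUTS2 segment (426 KO and 500 WT molecules) the sparse ratio was -0.17 ± 0.329 and the labelled one -0.69 ± 0.183. For the GABRA3 segment (403 KO and 444 WT molecules) they were -0.09 ± 0.403 and -0.76 ± 0.359. In these 2 smaller segments the plate ranges of sparse and labelled wells overlapped.

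None of the 4 sparse ratios differed from 0 (exact sign-flip test, adjusted p = 0.664 each). With the segments pooled the sparse ratio was -0.06 ± 0.107, with an interval of -0.15 to 0.02 from inverting the exact test at 95%, and 7 of 8 plates were below 0. Intermediate wells had -0.18 ± 0.0710 and labelled wells -0.73 ± 0.0456. Both are given without an interval, since these wells helped to choose the segments. Sparse minus labelled wells came to +0.52 ± 0.276 for AUTS2 (above 0 on 7 of 8 plates), +0.73 ± 0.213 for CNTNAP2 and +0.60 ± 0.246 for MACROD2 (8 of 8 plates each), and +0.67 ± 0.594 for GABRA3 (6 of 8 plates). These differences are given with no p, since the labelled wells helped to choose the segments. Without the shared molecules the pooled sparse ratio was -0.09 ± 0.0584, and its interval of -0.14 to -0.04 left out 0. Without recurrent barcodes it was -0.12 ± 0.436 (interval -0.49 to 0.25). Over ranges of molecules per well the CNTNAP2 ratio was -0.10 ± 0.291 at 300 to under 600 molecules and -0.02 ± 0.223 at 600 to under 1000. It stayed near there up to 3000 (-0.13 ± 0.148, -0.09 ± 0.102 and -0.10 ± 0.0866), was -0.41 ± 0.321 at 3000 to under 5000, and lay at -0.71 ± 0.152 or lower from 5000 on.

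The share of shared positions in the segments differed by the genotype of the labelled well in sparse wells of both genotypes. In KO sparse wells, 1.70% of the 19582 positions shared with KO labelled wells of the same barcode fell in the 4 segments, against 3.48% of the 19838 shared with WT labelled wells. In WT sparse wells the values were 1.75% of 21950 and 3.16% of 18994. Over both, the log2 ratio of positions shared with KO over those shared with WT labelled wells was -0.94. A shared position is by definition also one of the labelled well's own positions. Labelled wells helped to choose the segments as places where KO wells held fewer molecules. A lower share with KO labelled wells is therefore favoured by that choice, and the values are a description. They are counts of positions with no replicate error, and they describe the shared molecules only.

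**Figure D5:**
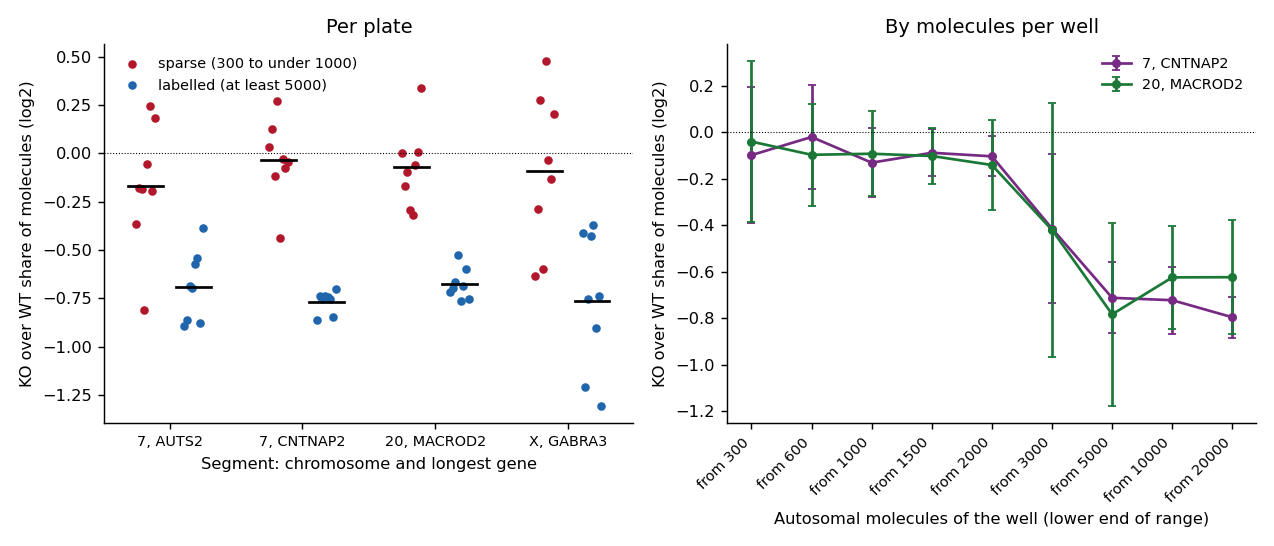
Left, KO over WT share of molecules (log2) per plate in 4 segments named by chromosome and longest gene, for sparse and labelled wells, with black lines at the mean of 8 plates; right, the same ratio (mean ± SD over 8 plates) for the CNTNAP2 and MACROD2 segments over ranges of autosomal molecules per well. Sparse wells scatter around 0 (means -0.17, -0.03, -0.07 and -0.09) and labelled wells around -0.69, -0.77, -0.68 and -0.76, and the CNTNAP2 means run from -0.02 to -0.13 below 3000 molecules and from -0.41 to -0.80 above.

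Across all 589 windows, the KO over WT ratio differed between sparse and labelled wells in 16 (limma voom genotype by class interaction, adjusted p under 0.05, 2.72% of those tested), 14 (2.38%) with a higher and 2 (0.34%) with a lower ratio in sparse wells. Of the 16, 13 lay inside the 4 segments, which held 20 of the windows tested and were themselves chosen on wells that include the labelled ones, 10 on chromosome 7 and 3 on chromosome 20. The greatest difference was at 7:130000001-135000000, where the longest gene is EXOC4, a subunit of the exocyst (interaction log2 +1.06 ± 0.187 SE, adjusted p = 0.000299 by limma voom), from +0.11 in sparse and -1.01 in labelled wells. The next window, with DGKI, a diacylglycerol kinase, gave +0.99 (+0.01 and -0.998). The window with GRM8, a glutamate receptor, gave +0.82 (+0.10 and -0.72) and that with ATRN, attractin, on chromosome 20 +0.86 (-0.02 and -0.88). The window 10:35000001-40000000 with CCNY, a cyclin, gave +0.91 (-0.33 and -1.22). The 2 windows lower in sparse wells were 5:100000001-105000000 with PAM, a peptide-amidating enzyme (-0.58, from -0.39 and +0.19), and 10:15000001-20000000 with MALRD1 (-0.49, from -0.12 and +0.36). Without the shared molecules, 9 windows passed and all were higher in sparse wells.

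Long genes were the only single genes with enough molecules to describe. Of 314 protein-coding genes of at least 500 kb, 309 were used and 5 with hardly any deposited positions in labelled wells were not. Their median density per Mb in sparse wells was 1.06 of the genome mean (quartiles 0.957 and 1.17), against 1.15 in labelled wells, with r = 0.62 between the classes over 309 genes. SORCS3, a sorting receptor on chromosome 10, was densest at 1.89 ± 0.407 (1.87 ± 0.267 in labelled wells). NEGR1, a neuronal growth regulator, followed at 1.88 ± 0.832, against 1.08 ± 0.0783 in labelled wells. LRMDA, a gene of melanocyte differentiation on chromosome 10, had 1.70 ± 0.249, PTPRG, a receptor phosphatase, 1.69 ± 0.452, and HPSE2, a heparanase relative on chromosome 10, 1.64 ± 0.357. SORCS3, LRMDA and HPSE2 all lie on the part of chromosome 10 that stood high above. The emptiest were LRRC37A2 (0.177 ± 0.101, 16 molecules) and ANXA8 (0.237 ± 0.168, 16 molecules), which have near-identical copies, and KIF26B (0.344 ± 0.175), PTPRN2 (0.446 ± 0.0826) and SLC14A2 (0.498 ± 0.257).

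All 25 genes of common fragile sites, large genes that tend to break under replication stress, held at least 50 sparse-well molecules, 5040 in all. Their median density was 1.08, with 16 of 25 above the genome mean, against 1.17 and 21 of 25 in labelled wells. Over all 309 long genes the median was 1.06 with 199 (64.4%) above the mean in sparse wells, and 1.15 with 235 (76.1%) in labelled wells. PTPRG, CDH13 and CTNNA3 were densest. Summed, they stood at 1.08 ± 0.0932 in KO and 1.14 ± 0.0938 in WT sparse wells. The 10 neuronal genes held 1340 molecules with a median of 1.05 (1.15 in labelled wells), and summed 1.08 ± 0.132 in KO and 1.13 ± 0.0924 in WT wells. Of 10 blood and immune genes BACH2 alone reached 50 molecules (1.17). Summed, the 10 held 134 molecules and stood at 0.869 ± 0.165 in KO and 0.917 ± 0.271 in WT sparse wells. The genes of the mesenchymal list and of the cell cycle and replication list held 59 and 117 molecules, with 0 of 10 and 0 of 14 reaching 50. CFAP20 itself, a gene of 15.8 kb at 16:58113592-58129381, held 3 molecules over all sparse wells, all in KO wells, and 91 in labelled wells. Positions on genomic DNA at this depth check neither the knockout nor the labels.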

How the data were processed

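The authors deposited, per the file headers, one table of molecules per plate with well, chromosome, position, signed length and genotype, that is positions and lengths in bp (other units) and no counts. Genome build GRCh38 is given in the submitters' processing notes; the sources used here do not give the aligner, filters or duplicate removal. Molecules were summed per well, plate and genotype; the labels' titles number the plates, which hold both genotypes each.

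Classes and genotypes were compared by an exact permutation test that flips the sign of each plate's difference (two-sided, 8 plates) with Benjamini-Hochberg adjustment within each family (14 class, 8 genotype and 4 segment tests). Chromosomes and 5 Mb windows with a mean of at least 5 molecules were fitted with limma 3.58.1 (voom, eBayes) in R 4.3.3, scaled by the total on chromosomes 1 to 22 and X; the fits were tested on simulated data. Everything else used Python 3.11.15, numpy 2.4.6 and pandas 2.3.3. Timing order, high-count bins and segments were defined without the sparse wells. Thinning to 300 molecules used a fixed seed. Gene names and coordinates come from RefSeq on GRCh38. Named genes are the longest in each segment and called window, the 5 densest and 5 emptiest of at least 500 kb, and list members with at least 50 molecules (the sparsest of the fragile-site list are not reported here). Barcodes were read from the well names.

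Plates pair KO and WT wells by their titles. The check on 592 windows gave a mean correlation of own-plate KO and WT deviations of 0.00097 (-0.0759 to 0.116), with 1 of 8 KO libraries best with its own plate. The members and lists were chosen with earlier results of these data known. The labels do not tie plates to separate cultures. The p-values therefore cover plate-to-plate spread alone, which may be technical. Sparse wells of one barcode recurred over the plates, and the tests do not take this dependence between plates into account. Alternatives changed the wells, filters, scaling, weights and plates; those on barcodes, shared positions and single plates were chosen after seeing the data.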

Additional observations from a re-analysis of the deposited data

Results flagged for a closer look

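Among 26 groups of 8 plates tested for a plate far from the others, of which chance flags about 1 in 20, 5 stood out. The KO over WT log2 ratio of the window 10:35000001-40000000 with CCNY was -2.22 on plate 6, against a median of -0.25 over the plates. On that plate 1 WT sparse well held 142 of the 184 WT molecules there. Without that well the mean over plates was -0.15 ± 0.412 instead of -0.40 ± 0.844, and the unevenness of that plate's WT sparse wells, flagged at 54.2% against a median of 36.3%, was 41.6%. The window at the start of chromosome 14, which held 30 KO and 33 WT molecules in all, had a ratio of -2.64 on plate 2 against a median of 0.18. The share of X molecules was 7.44% in the KO sparse wells of plate 5, against a median of 5.57%. The contig share was 1.53% in the WT sparse wells of plate 7, against a median of 1.19%.

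The KO over WT log2 ratio of sparse wells lay above that of labelled wells in the 4 segments, by +0.52 (AUTS2), +0.73 (CNTNAP2), +0.60 (MACROD2) and +0.67 (GABRA3). The labelled wells helped to choose the segments, which favours such a gap, so these are values with no test. In the fit over all 589 windows the ratio differed between the classes in 16. The 111 wells under 300 molecules, which no comparison used, held 13292 autosomal molecules, of which 21.7 ± 3.60% lay at a position that a larger well of the same barcode on another plate also held.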

How the results depend on the processing

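Of 212 alternative values of the 14 class tests, 190 kept their direction and side of the threshold. Many of the 212 left out a single plate and reused the rest, so this tally does not measure independent support. Many exceptions lay in the alternatives on shared molecules and recurrent barcodes, which bear on the dependence between plates. The values of high-count bins against labelled wells are favoured by the choice of bins, and those of mitochondrial molecules by the choice of wells. The exceptions follow, and unless a value or the alternative's construction shows it the cause was not tested. Without shared molecules (an alternative chosen after seeing the data, as are those on barcodes), the differences from intermediate wells in unevenness (-1.59 points), high-count bins (-0.161) and late share (+0.643, reversed) did not pass. At recurrent barcodes, where fewer wells remain, those from labelled wells in high-count bins (-0.0229), contigs (-0.464) and late share (-3.53) and that from intermediate wells in late share (+2.27, reversed) did not pass. Without recurrent barcodes, those from intermediate wells in unevenness (-0.993), length (log2 -0.0196), contigs (-0.0467), pairs (log2 -0.328) and late share (-0.301) did not pass. From wells of 300 to under 600 molecules the unevenness against intermediate wells was -3.75 and without high-count bins -0.336, both not passing. Counting molecules of one position and direction in a well once gave +0.137 for high-count bins against labelled wells (reversed) and log2 -0.146 for pairs against intermediate wells; without high-count bins the latter was -0.150. Leaving out a plate gave -0.355 to -0.232 for high-count bins against labelled wells. The CNTNAP2 ratio was -0.0781 to 0.0230 without a plate, above 0 without plate 5, and the GABRA3 ratio 0.0791 in wells of 300 to under 600 and 0.0137 without shared molecules. Segment differences, which the choice of segments favours and which the text gives without a test, passed in 0 segments against intermediate wells and 1 without recurrent barcodes. Windows called in sparse wells were 1 with median-of-ratios scaling, 2 with limma trend and 0 to 2 without a plate. Chromosomes called between classes were 0 against intermediate wells (0 higher, 0 lower) and 0 to 11 without a plate (0 to 6 higher, 0 to 5 lower). Interaction windows were 9 without shared molecules (9 higher, 0 lower) and 11 to 20 without a plate (10 to 17 higher, 0 to 3 lower). With the plate as a replicate block, calls were 13 chromosomes between classes and 17 interaction windows, and 0 windows and 0 chromosomes of KO over WT, all within 1.5 times of those without it. The plate numbers did not pair the libraries in the check, and without the block the 4 segment ratios still had 0 calls (unpaired exact permutation, adjusted p = 0.558). Depth leaves most single genes out of reach.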
